A study of Mus musculus with 8 samples.

Results

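The genes of the proteasome were followed across menin-null and wild-type mouse cells before and after differentiation in culture. Members were taken by gene symbol, as Psma, Psmb, Psmc, Psmd, Psme, Psmf or Psmg followed by a digit, which gave 49 of the 18193 genes measured, each read from the brightest of its probe sets by mean over the 8 arrays. Of these, 47 encode proteasome subunits, regulators or assembly factors. Psmc3ip, a partner of meiotic recombination enzymes, and Psme3ip1, a binding partner of an activator, met the symbol rule without being subunits. Psme2 was read only by a probe set shared with Psme2b and was left out. At least 1 group mean reached 7, the limit taken here for expression, for 47 of the 49 members, the exceptions being Psmb8 and Psmb11.

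Total RNA was hybridised to Affymetrix whole-genome mouse arrays. The groups were menin-null and wild-type PILECs and the menin-null and wild-type mouse embryonic stem cells (mESCs) they were derived from. Each of the 4 groups had 2 independent cultures. PILECs is the study's name, for pancreatic islet-like endocrine cells, and markers of islet and other cell types in them are given below. Menin-null cells (KO) were the line 3.2N, which carries an inactivated Men1, and wild-type cells (WT) were the line TC-1, both of 129S6/SvEvTac background, so that genotype and line cannot be told apart and the p-values cover only variation among cultures of a single line. The mESCs had been grown with LIF on irradiated embryonic fibroblasts and then freed of these feeders, and PILECs were made from them through embryoid bodies. All values are log2 signals as deposited, and differences are log2 differences with the standard error (SE) of the model.

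The proteasome degrades proteins that carry ubiquitin chains. Its 20S core is a barrel of stacked rings, with alpha subunits outside forming the gate and beta subunits inside holding the proteolytic sites. The 19S particle caps the barrel, where its ATPases unfold the substrate and its non-ATPase subunits bind ubiquitin and remove it. Immunoproteasome subunits can replace the catalytic beta subunits and change which peptides are cut for presentation on MHC class I molecules. Dedicated chaperones assemble the core and the base of the cap, and the proteasome of embryonic stem cells is known for high activity.

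The promoters of 4 members are shown because their genes stand for the patterns described below. Psmb3, a subunit of the beta ring, Psmc5, an ATPase of the cap, and Psme4, the activator PA200, were lower in both kinds of comparison, whereas Psme1, a subunit of the activator PA28, passed in none. Sequences are RefSeq entries on the GRCm38.p6 build, 250 bases before to 50 bases after the annotated start, read 5′ to 3′ along the gene. Capitals mark, on either strand, the CCAAT box, the core of the antioxidant response element (TGACNNNGC) and the core of the interferon-stimulated response element (GAAA, any 2 bases, GAAA).
Psmb3 (chr11:97703184-97703483, plus strand): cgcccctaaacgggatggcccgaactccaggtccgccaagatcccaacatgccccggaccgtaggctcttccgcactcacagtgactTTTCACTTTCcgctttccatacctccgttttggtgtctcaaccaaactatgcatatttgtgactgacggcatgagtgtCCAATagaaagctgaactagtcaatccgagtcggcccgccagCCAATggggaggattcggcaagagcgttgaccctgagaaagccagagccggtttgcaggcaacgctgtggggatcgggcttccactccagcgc
Psmc5 (chr11:106255935-106256234, plus strand): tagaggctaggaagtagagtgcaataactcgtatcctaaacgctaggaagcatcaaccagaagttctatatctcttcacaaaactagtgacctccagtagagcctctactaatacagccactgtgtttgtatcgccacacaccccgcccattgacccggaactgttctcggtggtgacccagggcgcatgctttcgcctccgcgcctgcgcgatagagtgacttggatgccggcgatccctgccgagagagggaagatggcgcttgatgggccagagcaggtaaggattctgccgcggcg
Psme4 (chr11:30771525-30771824, plus strand): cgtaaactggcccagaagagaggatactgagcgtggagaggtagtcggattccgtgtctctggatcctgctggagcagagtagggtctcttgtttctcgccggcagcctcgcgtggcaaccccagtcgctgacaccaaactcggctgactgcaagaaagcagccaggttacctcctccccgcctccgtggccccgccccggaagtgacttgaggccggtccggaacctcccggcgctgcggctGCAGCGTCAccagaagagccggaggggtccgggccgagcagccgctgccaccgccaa
Psme1 (chr14:55578244-55578543, plus strand): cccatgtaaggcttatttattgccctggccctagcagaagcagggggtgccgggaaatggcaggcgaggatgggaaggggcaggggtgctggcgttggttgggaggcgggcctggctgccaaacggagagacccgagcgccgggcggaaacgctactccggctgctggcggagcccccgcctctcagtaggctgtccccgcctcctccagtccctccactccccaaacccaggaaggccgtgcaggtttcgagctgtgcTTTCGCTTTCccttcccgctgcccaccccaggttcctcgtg
Psmb3 held 2 CCAAT boxes and 1 interferon-type match, Psme4 held 1 antioxidant-type match, and Psme1 held 1 interferon-type match. Psmc5 held 0 matches to these 3 motifs. A match is a run of letters and was not tested as a site.

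Men1 itself measured 7.95 and 8.02 in KO PILECs against 10.06 and 9.92 in WT PILECs, and 7.77 and 7.82 in KO mESCs against 9.90 and 9.97 in WT mESCs. The arrays of a group correlated at 0.993 to 0.997 across all 45101 probe sets, which are not independent replicates. Of 8 stem cell markers, 8 fell in PILECs of each genotype, and 7 of 8 fibroblast markers rose in each. Among neuron markers 7 of 8 rose in KO PILECs and 8 of 8 in WT PILECs. Of 8 islet markers measured, 4 reached a mean of 7 in PILECs of either genotype, against 3 in KO mESCs and 2 in WT mESCs. Of these 8, 4 (Chga, Sst, Gcg and Iapp) rose and 1 fell in KO PILECs relative to KO mESCs. In WT PILECs relative to WT mESCs, 2 (Chga and Sst) rose and 1 (Neurod1) fell. Gcg, Iapp, Pdx1 and Pcsk1 stayed under 7 in all groups. The rises of Gcg and Iapp in KO cells were thus at low signal, with KO PILEC means of 4.76 and 4.66 against 4.24 and 4.17 in KO mESCs. The macrophage and blood list reached 7 for 1 of 8 markers in PILECs and 2 of 8 in mESCs.

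Almost all proteasome genes were lower in PILECs than in mESCs. In KO cells 47 of 49 members fell and 0 rose (36.1% of all genes fell and 28.9% rose), with a median difference of -0.85 against -0.07 over all genes. In WT cells 44 of 49 fell and 0 rose (35.3% of all genes fell and 27.8% rose), with a median of -0.67 against -0.08 over all genes. The falling members include Psmf1 and Psmd9, whose other probe sets were higher in PILECs. Both PILEC arrays lay below both mESC arrays for 48 of 49 members in each genotype, against 43.6% of all genes in KO cells and 47.2% in WT cells. Among the 12062 genes with a group mean of 7 or more, the shares that fell were 46.5% in KO cells and 45.1% in WT cells. The median differences of those genes were -0.17 in KO cells and -0.13 in WT cells. Most of the differences were under 2-fold. By the criterion of the study (2-fold or more and p under 0.005 before adjustment), 18 members were lower in KO cells (18.1% of all genes) and 10 in WT cells (17.0% of all genes). In cultures of mixed cells, fewer cells of a type and less RNA per cell cannot be told apart.

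**Figure D1:**
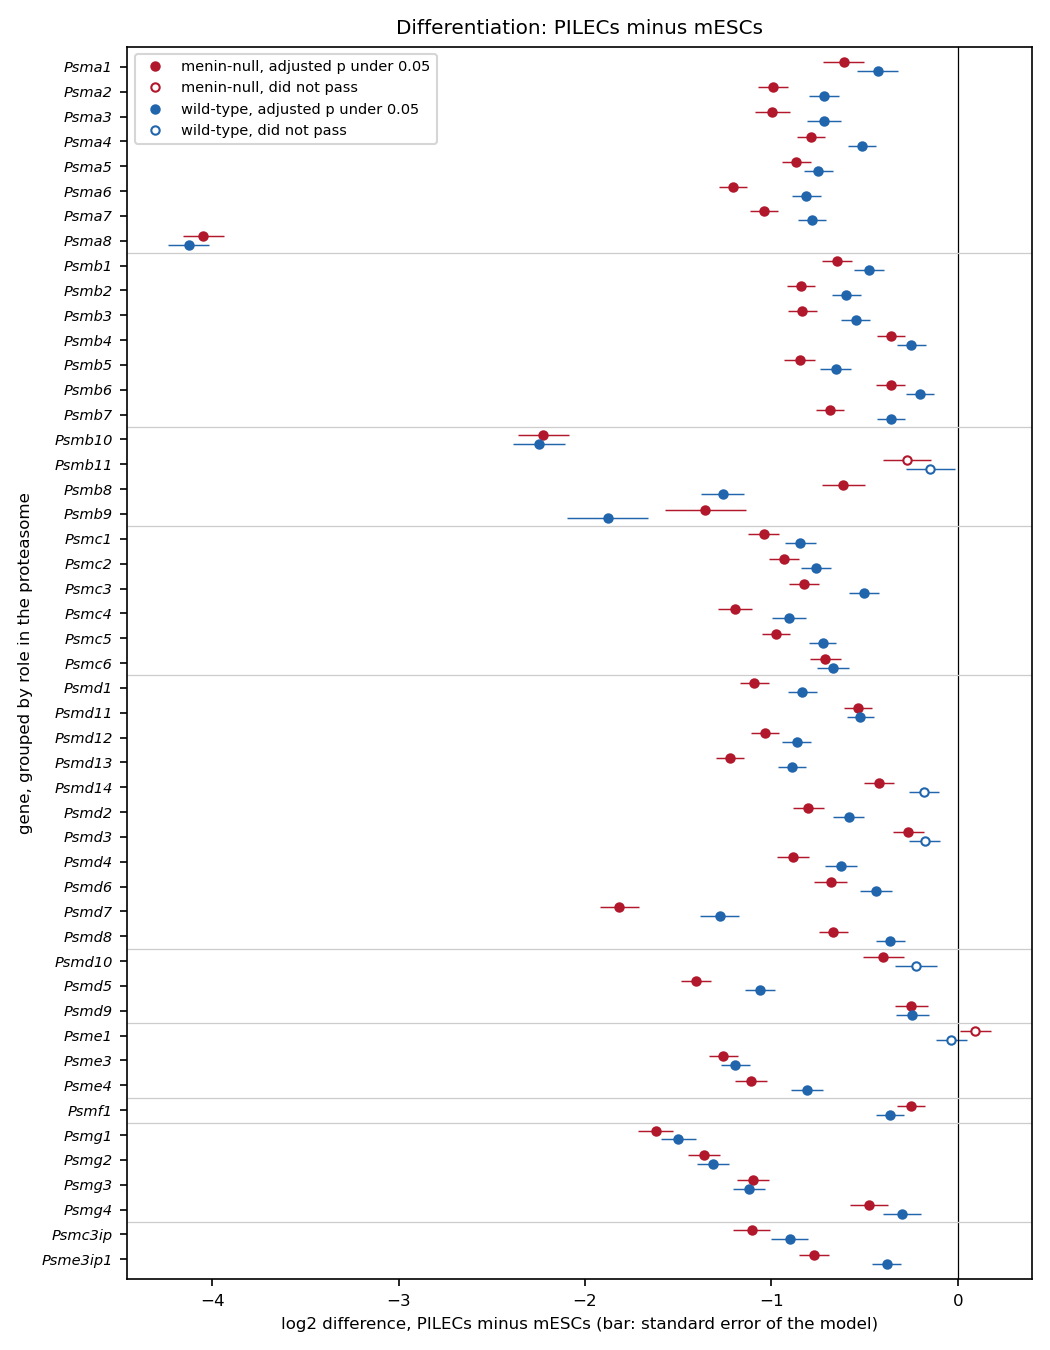
Log2 difference between PILECs and mESCs for each of the 49 members (rows, grouped by role and separated by grey lines), in menin-null cells (red, upper point of each row) and wild-type cells (blue, lower point). Bars are the standard error of the model and filled points had an adjusted p under 0.05. All points but that of Psme1 in menin-null cells lie left of 0, and Psma8 lies farthest left.

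Genes of dividing cells moved the same way. All 7 measured markers of dividing cells fell in PILECs of both genotypes, with a median of -2.24 in KO cells and -1.53 in WT cells. The median level of these 7 genes was 10.24 and 10.28 on the KO PILEC arrays, 10.62 and 10.74 on the WT PILEC arrays, 12.54 and 12.61 on the KO mESC arrays and 12.58 on each WT mESC array. The median of the 31 constitutive subunits of the core and the cap followed the same order of cell types, at 11.82 and 11.81 in KO PILECs, 12.05 and 11.99 in WT PILECs, 12.63 and 12.70 in KO mESCs and 12.68 and 12.69 in WT mESCs. The part of cell division in the proteasome differences was not tested.

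**Figure D2:**
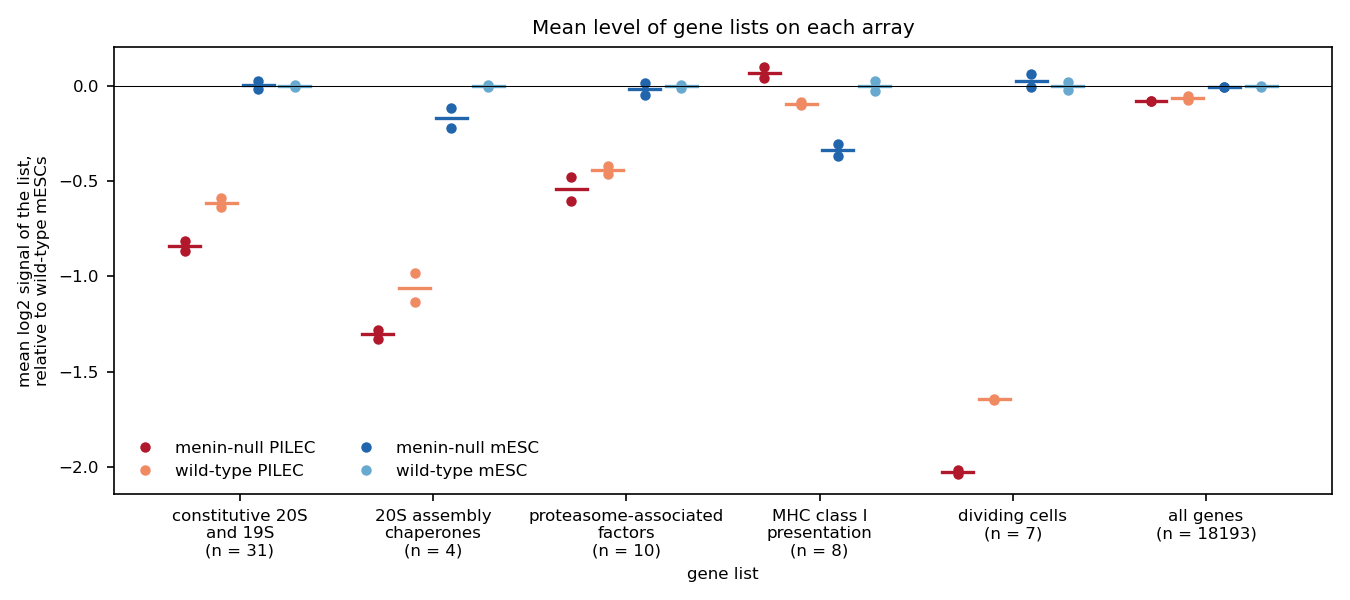
Mean log2 signal of 6 gene lists on each of the 8 arrays, relative to the mean of the 2 wild-type mESC arrays (points are arrays, horizontal bars are group means, n is the number of genes). Constitutive proteasome genes, 20S assembly chaperones and genes of dividing cells are lower in PILECs and lowest in menin-null PILECs, while the mean over all genes moves little.

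All alpha ring genes fell in PILECs of both genotypes. The 8 members had a median of -0.99 in KO cells and -0.73 in WT cells. Psma6 measured 11.87 and 11.96 in KO PILECs against 13.11 and 13.14 in KO mESCs, and 12.28 and 12.25 in WT PILECs against 13.08 and 13.07 in WT mESCs. The arrays of the cell types lay far apart, and the differences were -1.21 (SE 0.08, adjusted p = 2.61e-06) in KO cells and -0.81 (SE 0.08) in WT cells. Psma8, the alpha subunit of the testis proteasome, showed the largest difference of all members. Psma8 measured 5.61 and 5.52 in KO PILECs against 9.50 and 9.73 in KO mESCs, and 5.99 and 5.79 in WT PILECs against 10.04 and 9.98 in WT mESCs. The gene was thus 16.5-fold lower in KO PILECs (adjusted p = 4.76e-08) and 17.4-fold lower in WT PILECs (adjusted p = 5.24e-08), although its PILEC signals lay under the expression limit of 7 and the folds are approximate. Of 8 germ cell markers, 6 also fell in PILECs of each genotype and 0 reached a mean of 7 there.

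The beta ring genes fell by less. All 7 fell in both genotypes, with a median of -0.68 in KO cells and -0.48 in WT cells. Psmb5, the chymotrypsin-like subunit, measured 12.51 and 12.64 in KO PILECs against 13.40 and 13.44 in KO mESCs, and 12.72 and 12.64 in WT PILECs against 13.32 and 13.35 in WT mESCs. Its difference was -0.85 in KO cells and -0.66 in WT cells. Psmb6, the caspase-like subunit, differed by -0.36 in KO cells and -0.20 in WT cells, the smallest fall of a catalytic subunit. Psmb7, the trypsin-like subunit, differed by -0.68 in KO cells and -0.36 in WT cells.

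The immunoproteasome genes fell too, Psmb10 and Psmb9 with larger log2 differences than the constitutive subunits they replace. Psmb10, which takes the place of Psmb7, measured 8.09 and 7.68 in KO PILECs against 10.14 and 10.08 in KO mESCs, and 7.91 and 7.89 in WT PILECs against 10.25 and 10.04 in WT mESCs. It was 4.67-fold lower in KO PILECs (SE of the log2 difference 0.14, adjusted p = 2.23e-06) and 4.75-fold lower in WT PILECs (SE 0.14, adjusted p = 2.28e-06). Psmb9, the counterpart of Psmb6, measured 7.01 and 6.57 in KO PILECs against 8.09 and 8.19 in KO mESCs, and 6.88 and 6.21 in WT PILECs against 8.47 and 8.38 in WT mESCs. It differed by -1.35 (SE 0.22) in KO cells and -1.88 (SE 0.22) in WT cells, with the largest SE of all members. Psmb8, the counterpart of Psmb5, differed by -0.61 in KO cells and -1.26 in WT cells, but no group mean exceeded 6.74. Psmb11, the thymus-specific subunit, stayed at 5.59 to 6.12 on all arrays and did not pass in any comparison. Differences between an immunoproteasome gene and its partner were not tested.

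The cap followed the core. All 6 ATPase genes fell in both genotypes, with a median of -0.95 in KO cells and -0.74 in WT cells. Of the 11 non-ATPase genes, 11 fell in KO cells (median -0.80) and 9 in WT cells (median -0.58). Psmd7, a partner of the deubiquitinating subunit Psmd14 in the lid, measured 10.53 and 10.75 in KO PILECs against 12.37 and 12.55 in KO mESCs, and 10.98 and 10.95 in WT PILECs against 12.24 and 12.25 in WT mESCs. Its 3.52-fold lower level in KO PILECs and 2.42-fold lower level in WT PILECs were the largest falls of a constitutive subunit on the probe sets used. A second, dimmer Psmd7 probe set differed by only -0.62 in KO cells and -0.66 in WT cells, so the size of the fall rests on the probe set. Psmd14 itself differed by -0.42 in KO cells, where it fell, and by -0.18 in WT cells, where it did not pass. Psmd3, a scaffold of the lid, likewise fell in KO cells (-0.27) and did not pass in WT cells (-0.18).

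Core assembly chaperones taken by the symbol rule fell more steeply by median than the 31 constitutive subunits of the core and the cap. The medians of those subunits were -0.84 in KO cells and -0.63 in WT cells. The 4 chaperone genes Psmg1 to Psmg4 fell in both genotypes, with a median of -1.23 in KO cells and -1.22 in WT cells. Psmg1 measured 10.35 and 10.47 in KO PILECs against 11.98 and 12.07 in KO mESCs, and 10.76 and 10.59 in WT PILECs against 12.17 and 12.18 in WT mESCs, which is 3.07-fold and 2.83-fold lower in PILECs of KO and WT cells. Psmg2, with which Psmg1 pairs, differed by -1.36 in KO cells and -1.31 in WT cells, and Psmg3 by -1.10 and -1.12. Psmg4 differed by only -0.48 in KO cells and -0.30 in WT cells. Pomp, a maturation factor of the core outside the symbol rule, had means of 11.87 in KO PILECs against 12.29 in KO mESCs. In WT cells its means were 11.93 in PILECs against 12.28 in mESCs. The 3 chaperones of the cap base differed from each other. Psmd5 fell by 1.40 on the log2 scale in KO cells and by 1.06 in WT cells, while Psmd10 (gankyrin) differed by -0.40 and -0.22 and did not pass in WT cells, and Psmd9 differed by -0.25 and -0.24 on its brightest probe set.

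**Figure D3:**
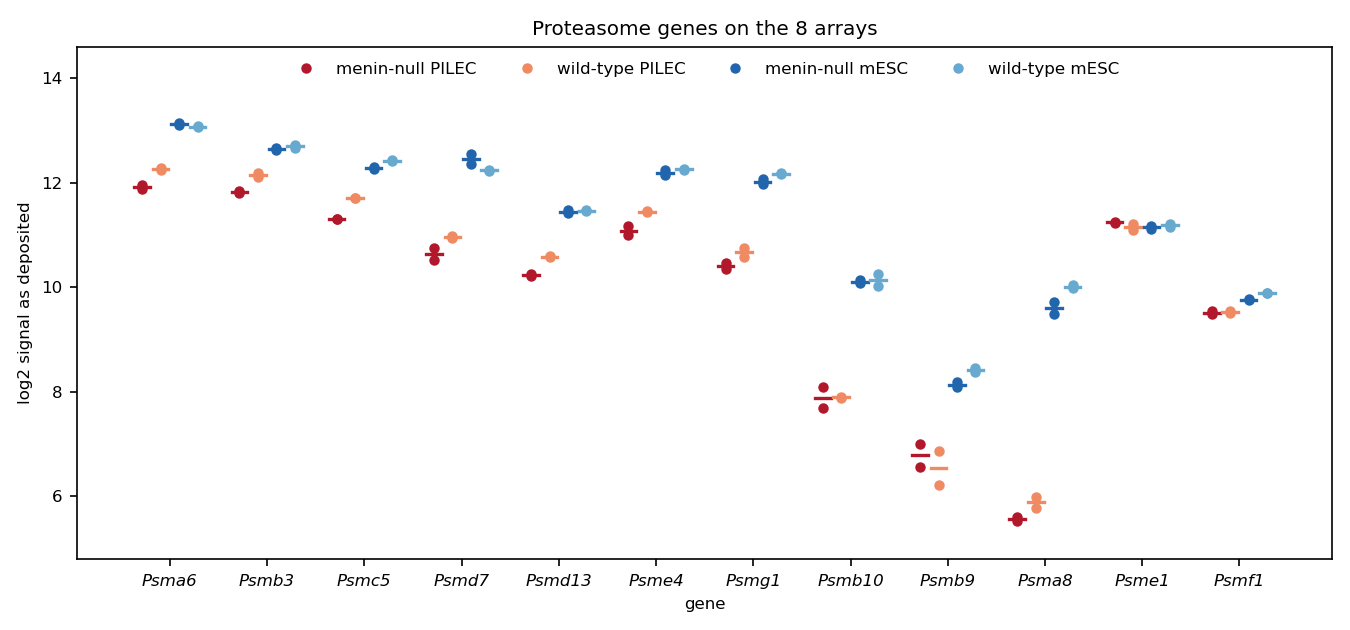
Log2 signal of 12 members on the 8 arrays (points are arrays, horizontal bars are group means, with the groups of each gene from left to right as menin-null PILECs, wild-type PILECs, menin-null mESCs and wild-type mESCs). On the probe sets used, the PILEC arrays lie below the mESC arrays for 11 of the 12 genes, and Psme1 stays between 11.09 and 11.25 in all groups. Other probe sets of Psmf1 go the other way.

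The activators split. Psme4 measured 11.01 and 11.17 in KO PILECs against 12.16 and 12.24 in KO mESCs, and 11.44 and 11.45 in WT PILECs against 12.26 and 12.25 in WT mESCs, with differences of -1.11 (SE 0.09) in KO cells and -0.81 (SE 0.09) in WT cells. Psme3, the nuclear activator PA28 gamma, differed by -1.26 in KO cells and -1.19 in WT cells on the probe set used, but by -0.44 and -0.23 on a second probe set of similar signal. Psme1 measured 11.25 and 11.23 in KO PILECs against 11.18 and 11.12 in KO mESCs, and 11.22 and 11.09 in WT PILECs against 11.16 and 11.22 in WT mESCs. Its groups overlapped in WT cells, its differences were 0.09 and -0.03 (SE 0.08 each), and it did not pass in either genotype. Psmf1, the inhibitor PI31, differed by -0.25 in KO cells and -0.37 in WT cells on its brightest probe set, while its other 3 probe sets were higher in PILECs by at least 0.36 in KO cells and 0.32 in WT cells, so that no direction can be given for this gene.

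Probe sets not chosen gave a further reading of the same genes. For 21 members, 32 other probe sets reached a group mean of 7, and 26 of 32 were below 0 in KO cells (median -0.65) and 27 of 32 in WT cells (median -0.57). They share the samples and can share transcripts, so they are no replicates. Among the exceptions was the other probe set of Psma3, an alpha ring gene, which was higher in PILECs by 0.43 in KO cells and 0.61 in WT cells with a highest group mean of 7.76, whereas the brightest set differed by -0.99 and -0.72. A dim probe set of Psme4 was higher by 0.64 in KO cells and 0.46 in WT cells, against 2 bright sets that were lower, as was the chosen one. The other 2 probe sets of Psmd9 were also higher in PILECs, by 0.39 in KO cells and 0.18 in WT cells on the brighter and by 0.50 and 0.36 on a set under 7, so that no direction can be given for this gene either.

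Loss of menin in PILECs went with slightly lower levels of most proteasome genes. Of 49 members, 8 fell and 0 rose (4.42% of all genes fell and 2.26% rose). Below 0 lay 45 members (9281 of all 18193 genes), with a median difference of -0.22 against -0.01 over all genes. Among the 12062 genes with a group mean of 7 or more, 7367 lay below 0 and the median was -0.06. The number of calls depended on the fit. The count was 0 when the model used only the 4 PILEC arrays and 0 with the replicate number as a block, and 0 without any single array of the WT mESC, WT PILEC or KO PILEC groups, against 30 when the variance was allowed to follow the signal level. The median of the members was -0.26 to -0.18 when each array was left out in turn. Both KO arrays lay below both WT arrays for 40 members (30.0% of all genes) and above them for 2 (24.7% of all genes). All 31 constitutive subunits of the core and cap were below 0, from -0.40 to -0.04, and 6 of them fell. Among genes with a group mean of 7 or more, 6.23% fell. None of the members reached the 2-fold criterion of the study, which 0.544% of all genes met as lower. The KO PILEC arrays are the same ones that enter the differentiation of KO cells, so its larger median there is no separate measurement.

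**Figure D4:**
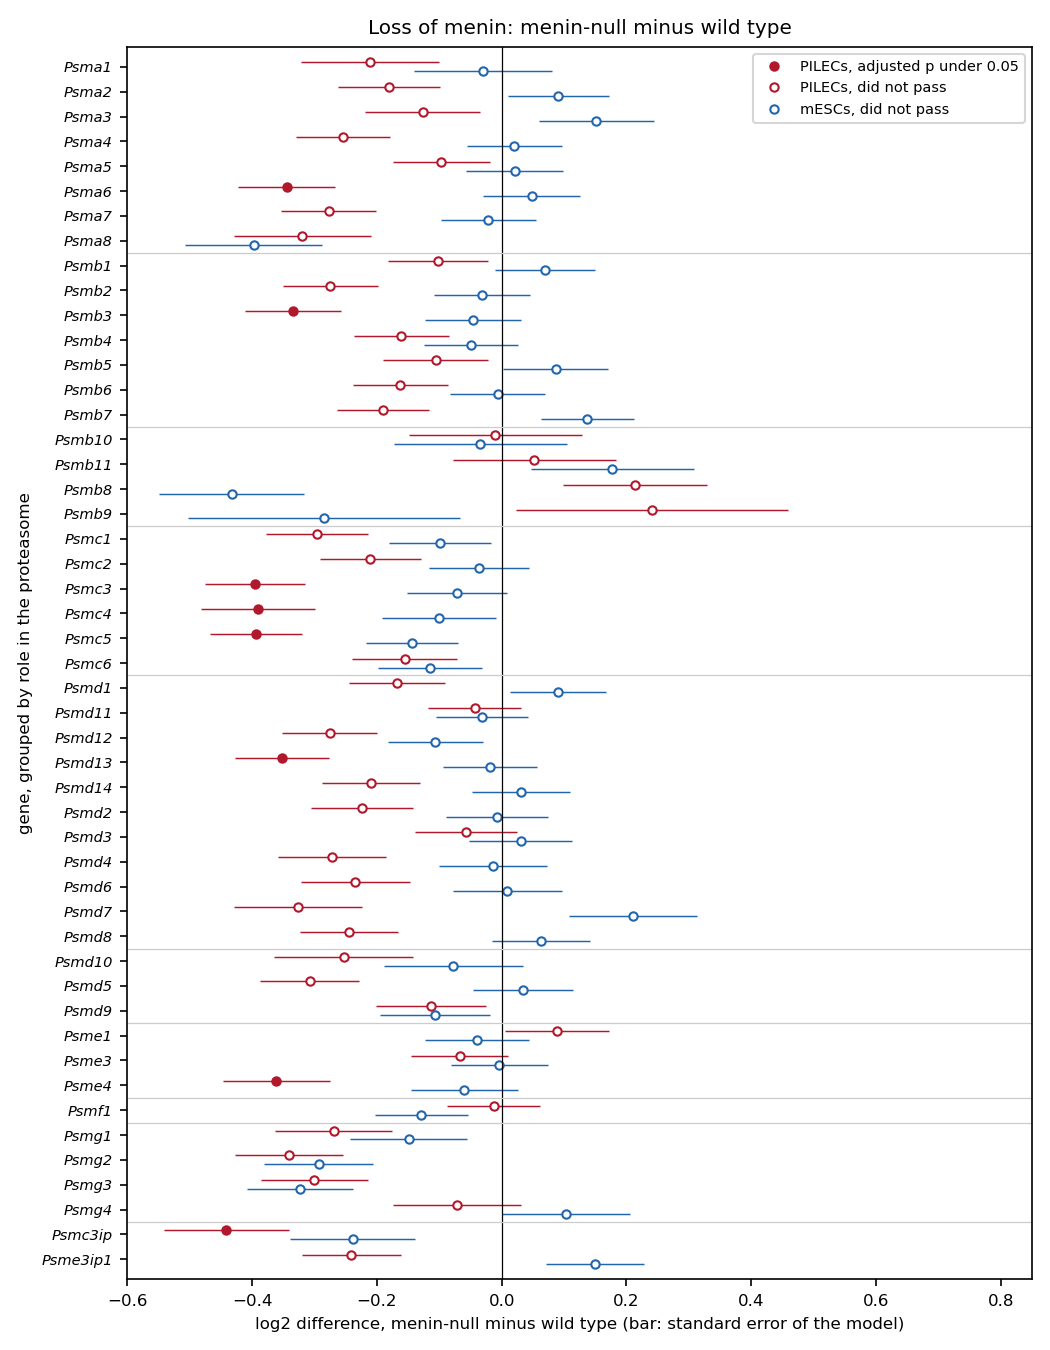
Log2 difference between menin-null and wild-type cells for each of the 49 members (rows, grouped by role and separated by grey lines), in PILECs (red, upper point of each row) and mESCs (blue, lower point). Bars are the standard error of the model and filled points had an adjusted p under 0.05. Most PILEC points lie left of 0, between -0.44 and -0.04, and the mESC points scatter around 0.

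Of the ATPases of the cap, 3 of 6 fell. Psmc5 measured 11.31 on each KO PILEC array against 11.70 on each WT PILEC array, a 1.31-fold lower level (log2 difference -0.39, SE 0.07, adjusted p = 0.0242). Psmc3 measured 11.50 and 11.55 in KO PILECs against 11.94 and 11.90 in WT PILECs (-0.40, SE 0.08, adjusted p = 0.0306). Psmc4 measured 10.99 and 11.15 in KO PILECs against 11.51 and 11.41 in WT PILECs (-0.39, SE 0.09, adjusted p = 0.0465). In all 3 genes both KO arrays lay below both WT arrays (30.0% of all genes). They are named because they fell in this same comparison, so this adds no support. The other 3 ATPases, Psmc1, Psmc2 and Psmc6, differed by -0.30, -0.21 and -0.16 and did not pass.

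The remaining members that fell came from other layers of the complex. Psma6 measured 11.87 and 11.96 in KO PILECs against 12.28 and 12.25 in WT PILECs (-0.34, adjusted p = 0.041), but differed by only -0.20 on a second bright probe set. Psmb3, a beta subunit without a proteolytic site, measured 11.84 and 11.80 in KO PILECs against 12.18 and 12.12 in WT PILECs (-0.33, adjusted p = 0.045). Psmd13, a lid subunit, measured 10.21 and 10.25 in KO PILECs against 10.59 and 10.57 in WT PILECs (-0.35, adjusted p = 0.0354). Its next brightest probe set differed by -0.23 and a dimmer one by 0.079. The direction is therefore lost when probe sets with names ending in _s_at, _x_at or _a_at (suffixed sets) are left out. On the probe sets used, both KO arrays of Psma6, Psmb3 and Psmd13 lay below both WT arrays, which adds no support either, since these genes were named for falling. Psme4 measured 11.01 and 11.17 in KO PILECs against 11.44 and 11.45 in WT PILECs (-0.36, adjusted p = 0.0492), and 2 further bright probe sets of it differed by -0.38 and -0.36. Psmc3ip, no subunit, showed the largest difference, at 8.77 and 8.66 in KO PILECs against 9.25 and 9.07 in WT PILECs (-0.44, adjusted p = 0.0424). Psmg2 (-0.34, adjusted p = 0.0611) and Psmd5 (-0.31, adjusted p = 0.0631) lay just outside the threshold.

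Members above 0 in KO PILECs were Psmb8, Psmb9, Psmb11 and Psme1, none of which passed. Psmb9 measured 7.01 and 6.57 in KO PILECs against 6.88 and 6.21 in WT PILECs, with overlapping arrays (0.24, SE 0.22). Psmb8 differed by 0.21 (SE 0.12), Psmb11 by 0.05 and Psme1 by 0.09. Psmb10 differed by -0.01 (SE 0.14).

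In the comparison of KO with WT PILECs, 3 of 7 markers of dividing cells fell (Cdk1 by 0.51, Mcm5 by 0.45 and Top2a by 0.44) and all 7 lay below 0, with a median of -0.35. Of 8 stem cell markers 5 fell (median -0.78), and of 8 striated muscle markers 6 fell (median -1.53). Over all genes 4.42% fell in this comparison. The part of these shifts in the proteasome differences was not tested.

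Between KO and WT mESCs no member passed the threshold. By limma 0 of 49 fell and 0 rose (2.36% of all genes fell and 1.29% rose). The median of the members was -0.03 against 0.01 over all genes. At an unadjusted p under 0.05 were 5 members (3370 of all 18193 genes). KO arrays lay below WT arrays for 18 members (24.9% of all genes) and above them for 12 (24.1% of all genes). The members with the largest differences were immunoproteasome, germ-line or assembly genes. Psmb8 measured 6.34 and 6.28 in KO mESCs against 6.87 and 6.61 in WT mESCs (-0.43, adjusted p = 0.0962). Psma8 measured 9.50 and 9.73 in KO mESCs against 10.04 and 9.98 in WT mESCs (-0.40, adjusted p = 0.104). Psmg3 measured 10.49 and 10.54 in KO mESCs against 10.88 and 10.79 in WT mESCs (-0.32, adjusted p = 0.0925), and Psmg2 measured 11.53 and 11.70 against 11.91 and 11.90 (-0.29, adjusted p = 0.124). Psmb9 differed by -0.28 (SE 0.22). For these 5 genes the KO and WT arrays did not overlap, which adds no support, as they were picked for large differences. The 31 constitutive subunits had a median of -0.01, with 17 below and 14 above 0.

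The difference between the menin-null effects in PILECs and in mESCs was tested with an interaction term. By limma 0 members passed (1.57% of all genes were lower and 1.50% higher). At an unadjusted p under 0.05 were 16 members (3409 of all 18193 genes). The median was -0.19 against -0.02 over all genes, and all 31 constitutive subunits were below 0. The same term is the difference between the differentiation effects of KO and WT cells. Psmb8 had the largest value, with effects of 0.21 in PILECs and -0.43 in mESCs (difference 0.65, SE 0.16, adjusted p = 0.0854). Psmd7 went the other way, with effects of -0.33 in PILECs and 0.21 in mESCs (difference -0.54, SE 0.15, adjusted p = 0.102), whereas its second probe set gave effects of -0.084 and -0.12. Psmb9 (0.52, SE 0.31), Psma6 (-0.39, SE 0.11) and Psme3ip1 (-0.39, SE 0.11) followed.

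Other genes of the pathway were less uniform. Of 10 measured factors that bind or mature the proteasome, 6 fell and 1 rose in KO PILECs relative to KO mESCs (36.1% of all genes fell and 28.9% rose). In WT PILECs relative to WT mESCs, 7 fell and 2 rose (35.3% of all genes fell and 27.8% rose). Among genes with a group mean of 7 or more, 46.5% fell in KO cells and 45.1% in WT cells. Uchl5, a deubiquitinase of the cap, measured 9.97 and 10.06 in KO PILECs against 12.29 and 12.28 in KO mESCs, and 10.26 and 10.15 in WT PILECs against 12.45 and 12.49 in WT mESCs (-2.28 and -2.26). Usp14, another deubiquitinase of the cap, fell by 1.12 in KO cells and by 0.94 in WT cells. Zfand5, a proteasome-binding zinc finger protein, rose in KO cells (adjusted p = 1.57e-05) and rose by 1.16 in WT cells. Among 4 measured regulators of proteasome genes, Nfe2l2 (NRF2, which acts through antioxidant response elements) differed by -1.92 in KO cells and -1.32 in WT cells, and Nfe2l1 (NRF1, which drives proteasome genes when proteasome activity is short) rose by 0.49 and 0.41. Ngly1, the enzyme that processes NRF1, rose by 0.69 and 0.67. Of 5 ubiquitin activating and shuttle genes, 4 fell and 1 rose in each genotype, with Rad23b at -1.65 and -1.34, Uba6 at -1.53 and -1.26, and the rising Ubqln2 at 1.25 and 0.77. None of these genes passed in the comparison of KO with WT PILECs.

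The antigen presentation genes served by the immunoproteasome moved in both directions. Of 8 MHC class I genes, 4 rose and 0 fell in KO PILECs relative to KO mESCs (28.9% of all genes rose and 36.1% fell), and 2 rose and 3 fell in WT PILECs relative to WT mESCs (27.8% of all genes rose and 35.3% fell). H2-D1, a class I heavy chain, rose by 1.39 in KO cells and 0.85 in WT cells, and B2m, its light chain, rose by 1.03 and 0.83. Erap1, a peptide trimming enzyme, differed by 0.20 in KO cells, where it did not pass, and fell by 1.49 in WT cells, the largest difference of the list. Of 8 interferon response genes, 1 rose and 4 fell in KO cells and 0 rose and 5 fell in WT cells, with Gbp2 at -1.38 and -2.63, Socs1 at -0.80 and -0.81, and Irf1, an activator of immunoproteasome genes, at -0.56 and -0.96. Of the 8 class I genes, 1 fell in KO relative to WT mESCs (2.36% of all genes fell). This was Erap1 (-1.34, SE 0.19, adjusted p = 0.0122). Its signals of 4.76 and 5.30 in KO mESCs against 6.41 and 6.32 in WT mESCs all lay under 7. That call was lost without either WT mESC array (adjusted p = 0.0997 and 0.0774).

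Promoter entries were found for 41 members, with 44 promoters between them. Each motif was searched on both strands and counted apart from the others, also where matches overlapped. The CCAAT box was present in 36.4% of the member promoters (37.4% of the promoters of genes on the array), the antioxidant-type core in 13.6% (13.9%) and the GC box GGGCGG in 52.3% (52.3%), so these shares were close to the background. The interferon-type core occurred in 5 of 44 member promoters, or 11.4%, against 3.03% of the promoters of genes on the array. Those 5 were Psmb3, Psmd4, Psmd9, Psme1 and Psmg4. Their median difference between PILECs and mESCs was -0.48 in KO cells and -0.30 in WT cells, against -0.95 and -0.74 for the 36 members without it. The 6 members with the antioxidant-type core had medians of -0.78 and -0.66, against -0.89 and -0.72 for the other 35. These are descriptions of a few genes, and nothing was tested on them.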

How the data were processed

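Each array held a log2 signal for every probe set, deposited by the authors and ranging from 3.26 to 15.2. RMA and Partek are named in the submitters' processing notes, while the methods of the study name the Microarray Analysis Suite of Affymetrix. No version is stated in the sources used here, and which software made the values is not settled. The number of arrays limits the precision, and 2 arrays against 2 allow no exact permutation p below 0.333.

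Of 45101 probe sets, 34945 had a single gene symbol in the platform annotation. The 64 controls, 9160 without a symbol and 932 with several were left out. A gene took its probe set with the highest mean, a choice that mattered for 9010 of 18193 genes and for 27 of the 49 members.

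Means of the 4 groups were fitted to the 8 arrays together, using limma 3.58.1 (R 4.3.3, version 1.17.8 of data.table, with pandas 2.3.3 and matplotlib 3.10.9 for sequences and plots). Variances were moderated by eBayes (4 residual and 3.72 prior degrees of freedom), and p-values adjusted by Benjamini-Hochberg over 18193 genes. A gene is said to rise or fall where adjusted p was under 0.05, in 5 contrasts. Groups came from the sample titles. The fit was tested on simulated data. Alternatives were quantile normalization, the mean of a gene's probe sets, and leaving out suffixed sets (probe sets with names ending in _s_at, _x_at or _a_at). Further ones were genes with a group mean of 7 or more, a variance trend, fewer arrays, a replicate block and the threshold of the study.

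The members and lists were chosen with earlier results of these data known. Genes named were all members called for loss of menin, the 5 largest differences per contrast, catalytic pairs, activators, members whose probe sets disagree, and from the pathway lists the 3 largest differences of differentiation. Pomp was named beyond this rule. Promoters came from RefSeq (GRCm38.p6).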

Additional observations from a re-analysis of the deposited data

Results flagged for a closer look

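Among the genes set beside the proteasome, 2 of 8 MHC class I presentation genes differed between PILECs and mESCs in the effect of menin loss, by the interaction term of limma. Erap1 differed by 0.35 in KO relative to WT PILECs and by -1.34 in KO relative to WT mESCs, a difference of 1.69 (adjusted p = 0.0218). It measured 5.42 and 5.04 in KO PILECs, 4.91 and 4.85 in WT PILECs, 4.76 and 5.30 in KO mESCs and 6.41 and 6.32 in WT mESCs. The call was lost without WT mESC array 1 or 2, WT PILEC array 1 or 2 or KO PILEC array 1, with adjusted p of 0.0924, 0.0785, 0.102, 0.112 and 0.0634. Tapbp, the class I peptide loading factor tapasin, differed by 0.28 in PILECs and by -0.39 in mESCs, a difference of 0.67 (adjusted p = 0.0436). Tapbp lies outside the rule for named genes and was named after its values were seen. Its call was lost with the replicate block (adjusted p = 0.0822) and without any single array other than KO mESC array 2, with adjusted p of 0.0699 to 0.182. No proteasome gene met a rule for a closer look, and groups of 2 arrays allow no test for outlying samples.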

How the results depend on the processing

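The falls with differentiation kept a negative median under every alternative run, and the count stayed at 43 to 46 members in KO cells and 40 to 44 in WT cells when each array was left out in turn, and 18 and 10 at the threshold of the study. A count of 1 rising member, against 0, came with quantile normalization (KO cells), with the mean of probe sets (both genotypes) and without suffixed sets (both genotypes). Without suffixed sets, 40 of 43 members were called in KO cells and 37 in WT cells, including the rising 1. With the mean of probe sets, 46 of 49 were called in KO cells and 40 in WT cells, also including the rising 1. With the mean of probe sets Psmd9 became 0.21 in KO cells and 0.10 in WT cells and Psmf1 0.41 in both. Without suffixed sets Psma3 became 0.43 in KO cells and 0.61 in WT cells. The 8 falling members of KO relative to WT PILECs became 4 with quantile normalization, 4 with the mean of probe sets and 4 without suffixed sets (43 members). They became 16 among genes with a group mean of 7 or more (47 members) and 30 with the variance trend. The count was 0 with only the PILEC arrays (24 at an unadjusted p under 0.05), 0 with the replicate block (26) and 0 at the threshold of the study. Leaving out single arrays gave 0 to 10, with 10 without either KO mESC array and 0 without any other (15 to 24 at an unadjusted p under 0.05). In the main fit 27 members had an unadjusted p under 0.05, as had 4230 of all 18193 genes. That share over all genes was not counted for the alternatives. Each of the 8 genes was called in 4 to 7 of 15 alternatives, and Psmd13 became 0.079 without suffixed sets. In mESCs the variance trend gave 1 higher and 2 lower members, and 0 to 1 lower members came from leaving out single arrays. The trend gave 16 lower members for the difference of the menin-null effects, against 0. The cause of these moves was not tested, except that a dropped array or a restricted fit leaves fewer degrees of freedom. The replicate numbers come from titles that do not say what they mark, and deviations of same-numbered arrays correlated at -0.28 to 0.21, so the block rests on a number alone. It called 46 falling members in KO cells and 41 in WT cells with differentiation, 0 in mESCs and 0 for the difference of effects. Signals near or under 7 (Psmb8, Psmb9, Psmb11, Psma8 in PILECs) are not shown to exceed background, and folds there are approximate.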
